A study of Mus musculus with 4 samples.

Results

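The membrane sector and the accessory proteins of the vacuolar proton pump were followed with and without fluoxetine in S-180 cells, which come from a mouse sarcoma that can be transplanted. These were 9 of the 23771 genes with a named probe on the array, chosen by symbol: Atp6v0a1, Atp6v0a2, Tcirg1, Atp6v0b, Atp6v0c, Atp6v0d1, Atp6v0e, Atp6ap1 and Atp6ap2. Their probes were found by the transcript accession that the array files give for each probe, which gave 14 of 56558 usable probes. Of the 9 genes, 5 had 2 probes and 4 had 1. The study held 4 single-colour arrays. The control group was 2 samples of untreated S-180 cells, and the other group 2 samples given 20 µM fluoxetine, a serotonin reuptake inhibitor, for 12 h. All cells grew in medium with 10% serum and carry no engineered allele that the labels name. The labels call the samples of a group biological replicates and do not say whether the cultures were separate, so a p-value here covers no more than the variation among these 4 samples.

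The vacuolar ATPase pumps protons into lysosomes, endosomes and secretory vesicles. Its soluble V1 sector splits ATP and turns a rotor, and its V0 sector in the membrane carries the protons across. In V0, a proteolipid ring of c-type subunits turns against the large a subunit, subunit d joins the ring to the central stalk of V1, and the accessory proteins take part in assembly and trafficking of the pump. Fluoxetine is a weak base of the cationic amphiphilic kind, and such drugs are known to collect in acidic compartments. The comparison asked which of the pump's transcripts differed in amount after the drug.

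Transcripts of 4 of the 9 genes rose with fluoxetine and 0 fell, each gene taken by its brightest probe. They were Atp6v0d1 (2.49-fold), Atp6ap1 (1.67-fold), Atp6v0a1 (1.66-fold) and Tcirg1 (1.34-fold). Over all 13539 genes taken the same way, 13.8% rose and 9.9% fell. The median log2 change of the 9 genes was 0.42, against 0.02 for all genes. Probe by probe, 7 of 14 rose and 0 fell, while 12.1% of all 28270 tested probes rose and 14.4% fell. The share of the calls that were rises depends on the scaling: it was 45.7% here and 77.5% when each array was centred on its median, which moved the median log2 change of all probes by 0.25. The members' calls are read against those shares, and no test of the set was made.

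A rise or fall here is an adjusted p under 0.05 in limma. That method fits a linear model to each tested probe and draws the probe's own spread toward a value shared by all tested probes. Each log2 change is given ± its standard error in that fit (n = 2 arrays per group). Levels are relative signals, the background-corrected signal of a probe divided by the 75th percentile of its array. A probe's relative signal is comparable between arrays and not between probes. For a single probe, the smallest p that an exact two-sided permutation test allows in this design is 0.333.

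The calls rest on few arrays. Without control 1, without fluoxetine 1 or without fluoxetine 2, limma called no probe, member or other. Without control 2 it called 4 member probes, those of Atp6v0d1 and Atp6ap1 and the brighter one of Atp6v0a1, and 6.2% of all tested probes as higher and 7.46% as lower. With all arrays 9 of 14 member probes had an unadjusted p under 0.05 in limma, as did 12604 of all 28270 tested probes. All 14 probes entered the fit, and 13 were well above background on all 4 arrays. In 10 probes both fluoxetine arrays lay above both control arrays, in 1 both lay below, and in 3 the groups overlapped. Such separation was common, with 73.2% of all tested probes not overlapping in either direction.

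**Figure D1:**
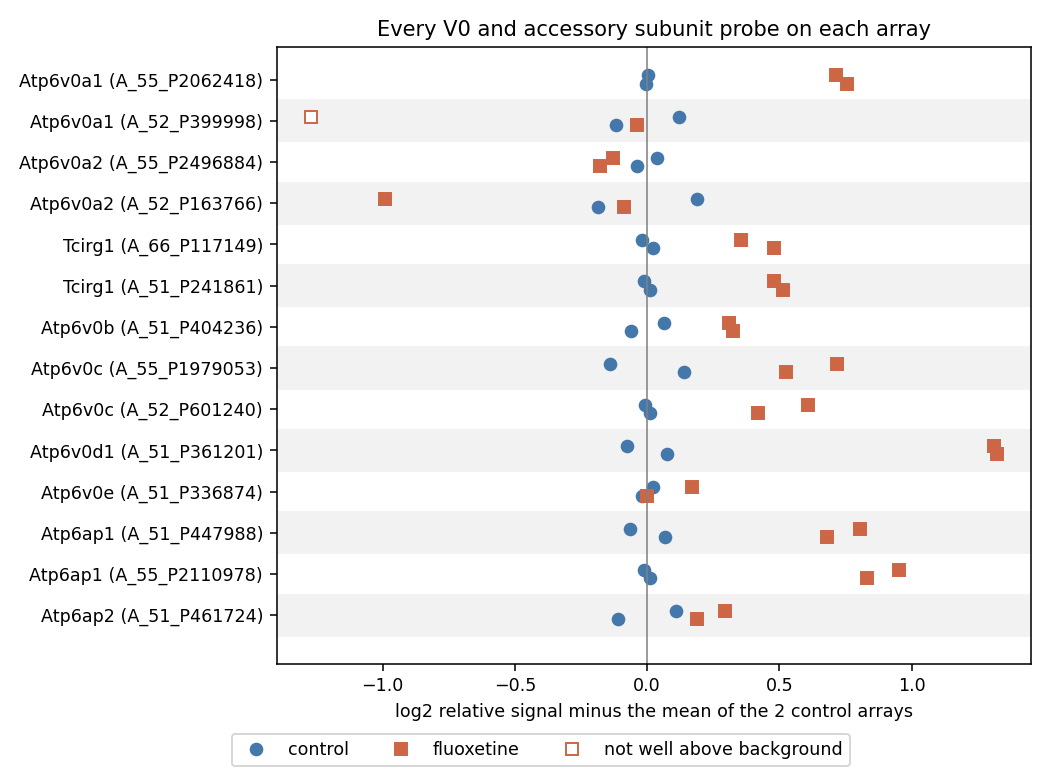
Each row is a probe and each symbol an array. The x axis is the log2 relative signal minus the mean of the 2 control arrays, so controls (circles) centre on 0, and an open symbol marks a spot not well above background. Fluoxetine arrays (squares) lie right of both controls in 10 of 14 rows, farthest right for Atp6v0d1, and 1 fluoxetine array lies far left in the dimmer probes of Atp6v0a1 and Atp6v0a2.

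Atp6v0d1 encodes subunit d of the central stalk, the form found in most tissues. Its single probe read 4.42 and 4.90 in the control arrays and 11.5 and 11.6 in the fluoxetine arrays. The fluoxetine values lay close together and well above both controls. The log2 change was 1.32 ± 0.09 (95% interval 1.06 to 1.58, adjusted p = 0.0142), which placed the gene at rank 177 of 13539 from the largest rise down. It had the largest change among the 9 genes. Leaving out 1 array at a time gave log2 changes of 1.24 to 1.39. Of the genes measured on all arrays, Sprr1a, the nuclear non-coding RNA Neat1 and the splicing kinase gene Srpk2 had the 4 centred log2 values nearest to those of Atp6v0d1, at distances of 0.0309, 0.0429 and 0.0524 among 11724 candidates. With 4 arrays in 2 groups this likeness is little more than a similar change.

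The promoter stretch of Atp6v0d1 is shown beside 3 others because lysosomal genes often carry an E-box near their start, CACGTG, which the transcription factor TFEB and its relatives can bind within the longer element TCACGTGA. Both motifs read the same on both strands, and every longer match also holds the shorter one. RefSeq windows of 300 bases around transcript starts on GRCm38.p6, 250 before and 50 after, were searched: 12 windows of 8 members had an entry. The shorter motif was in 3 of the 12, 1 each for Atp6v0b, Atp6v0d1 and Atp6v0e, and in 7.15% of all 32851 windows. The longer one was in 2 of the 12, those of Atp6v0d1 and Atp6v0e, and in 0.974% of all windows. Each line below runs 5′ to 3′ on the strand of the gene from 100 bases before the start to 20 after it, with matches in capitals. Atp6v0d1 lies at chr8:105566045-105566164 on the minus strand, Atp6v0e at chr17:26676296-26676415 on the plus strand, Atp6v0b at chr4:117887310-117887429 on the minus strand and Atp6ap1 at chrX:74296997-74297116 on the plus strand. They are the gene with the largest rise, a gene with the same element and no call, a gene with the shorter motif alone, and a gene that rose with no match.
Atp6v0d1: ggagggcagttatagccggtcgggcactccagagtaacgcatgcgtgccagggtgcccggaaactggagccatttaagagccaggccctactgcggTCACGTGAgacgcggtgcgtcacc
Atp6v0e: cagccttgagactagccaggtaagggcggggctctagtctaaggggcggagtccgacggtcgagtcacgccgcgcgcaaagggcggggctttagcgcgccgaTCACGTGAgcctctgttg
Atp6v0b: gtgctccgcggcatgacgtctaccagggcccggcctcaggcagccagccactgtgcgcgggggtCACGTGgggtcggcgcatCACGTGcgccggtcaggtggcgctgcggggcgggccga
Atp6ap1: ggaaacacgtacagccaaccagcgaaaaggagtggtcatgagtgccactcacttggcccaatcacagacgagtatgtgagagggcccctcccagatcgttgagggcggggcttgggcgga
The element of Atp6v0d1 began 4 bases before the annotated start, and that of Atp6v0e at base 3 of the transcript. In Atp6v0b the E-boxes began 36 and 18 bases before the start. The windows of Atp6v0a1, Tcirg1, Atp6v0c, Atp6ap1 and Atp6ap2 held neither motif. For Atp6v0a1 the sole window, chr11:101010148-101010447 on the plus strand, lay inside the gene, which begins at 101009422. The 5′ end of that gene was therefore not searched. Members with and without a match stood on both sides of the call. A match is a description of letters, and binding was not measured.

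**Figure D2:**
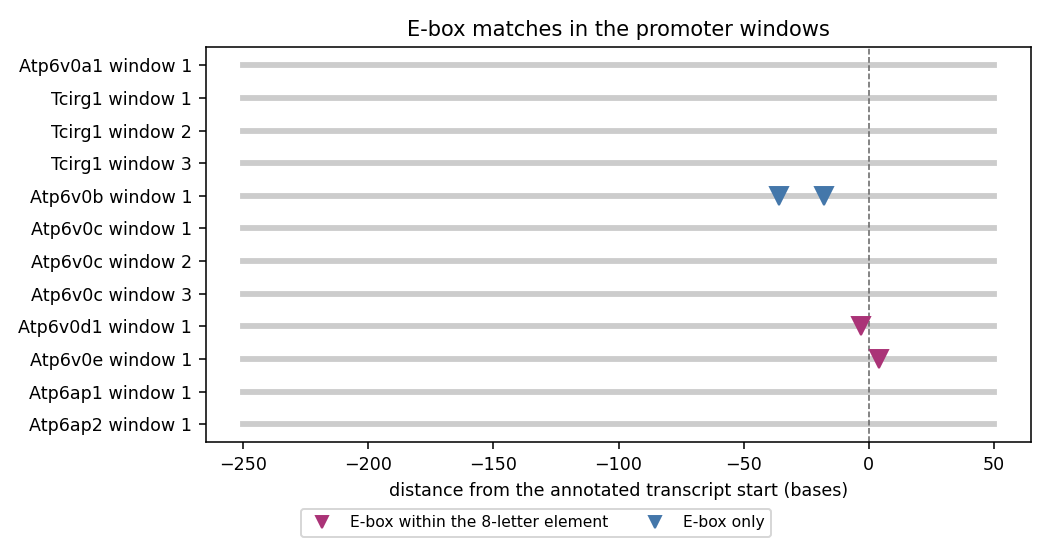
Each grey bar is a RefSeq window from 250 bases before to 50 after a transcript start (dashed line), for 12 windows of 8 members. Triangles mark the first base of an E-box: purple where it lies in the 8-letter element (Atp6v0d1 and Atp6v0e), blue where it does not (Atp6v0b).

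Atp6v0e encodes subunit e, a small membrane protein of V0. Its probe read 26.5 and 25.7 in control and 29.3 and 26.1 with fluoxetine. The groups overlapped, with fluoxetine 2 between the controls. The log2 change was 0.08 ± 0.10 (95% interval −0.19 to 0.36, adjusted p = 0.534), and it was −0.00052 without fluoxetine 1 and 0.17 without fluoxetine 2. The interval lay below that of Atp6v0d1, though the difference between those changes was not itself tested.

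The a subunits carry the half-channels through which protons pass and differ in where the pump is sent. Atp6v0a1 encodes a1, which is abundant in neurons and common elsewhere. Its brighter probe, A_55_P2062418, read 3.20 and 3.18 in control and 5.23 and 5.38 with fluoxetine, with almost no spread in either group. It rose by 0.73 ± 0.07 (95% interval 0.52 to 0.95, adjusted p = 0.0163). Its dimmer probe, A_52_P399998, moved the other way and was close to background. That probe read 0.0558 and 0.0473 in control and 0.0213 and 0.05 with fluoxetine, and was not well above background on fluoxetine 1. Fluoxetine 2 lay between the controls. The log2 change of the dimmer probe was −0.66 ± 0.46 (95% interval −1.97 to 0.66, adjusted p = 0.336), and −0.04 without fluoxetine 1. The files name these probes by different transcripts of the gene.

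Atp6v0a2 encodes a2, known from endosomes and the Golgi. Its brighter probe, A_55_P2496884, read 13.8 and 13.1 in control and 12.3 and 11.9 with fluoxetine. Both fluoxetine arrays lay just below both controls, the sole member probe with that order. The log2 change was −0.15 ± 0.08 (95% interval −0.38 to 0.07, adjusted p = 0.217), and 0.09 with each array centred on its median, so its direction depends on the scaling. The dimmer probe, A_52_P163766, read 2.07 and 1.60 in control and 0.916 and 1.71 with fluoxetine, with the groups overlapping. Its log2 change was −0.54 ± 0.36 (adjusted p = 0.319), −0.99 without fluoxetine 2 and −0.09 without fluoxetine 1. The low value of fluoxetine 1 thus set the size of this change, as it did for the dimmer probe of Atp6v0a1.

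Tcirg1 encodes a3, the subunit of lysosomes and of the bone-resorbing membrane of osteoclasts. Its brighter probe, A_66_P117149, read 9.39 and 9.66 in control and 12.2 and 13.3 with fluoxetine. Both fluoxetine arrays were above both controls. It rose by 0.42 ± 0.09 (95% interval 0.17 to 0.67, adjusted p = 0.0436). It was called under 4 of 13 alternatives, with adjusted p from 0.0142 to 0.219. The call was lost when any 1 array was left out, control 2 included (adjusted p = 0.1005), without the filter on dim probes, under both blocks, with quantile normalization (0.40, adjusted p = 0.0521) and with background correction from the median pixel signals (0.25, adjusted p = 0.219). The dimmer probe, A_51_P241861, read 3.27 and 3.32 in control and 4.60 and 4.70 with fluoxetine, and rose by 0.50 ± 0.07 (adjusted p = 0.0250). The probes of Tcirg1 differed by 0.08 in log2 change, less than the standard error of the brighter one. Among the a subunits, a1 and a3 were called higher by their brightest probes and a2 was not, and the difference between them was not tested.

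The proteolipid ring is built from subunit c, encoded by Atp6v0c, and the related c″, encoded by Atp6v0b. Atp6v0c is the main ring protein. Its brighter probe, A_55_P1979053, read 20.0 and 24.3 in control and 36.3 and 31.8 with fluoxetine. The fluoxetine arrays were both above the controls, but both groups were spread. The log2 change was 0.62 ± 0.14 (95% interval 0.21 to 1.03), which just missed the threshold (adjusted p = 0.0519). It passed under 6 of 13 alternatives, with adjusted p from 0.0065 to 0.191. The dimmer probe, A_52_P601240, read 4.72 and 4.78 in control and 7.23 and 6.35 with fluoxetine. Its controls were close together, and it rose by 0.51 ± 0.10 (95% interval 0.23 to 0.80, adjusted p = 0.0387). Counting a gene when any of its probes was called gave 5 genes higher in place of 4, with Atp6v0c the added one. A gene with more probes has more chances under that rule, and the share of all genes it calls is not given here.

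Atp6v0b read 12.8 and 11.8 in control and 15.2 and 15.4 with fluoxetine on its single probe. The groups did not overlap. The log2 change was 0.32 ± 0.09 (95% interval 0.07 to 0.56), not called (adjusted p = 0.0696). It was called under 2 of 13 alternatives, with adjusted p from 0.0217 to 0.244. Both ring genes had higher signal on both fluoxetine arrays, and 1 of their 3 probes passed the test. That order of the arrays was common, found in 5272 of all 13539 genes by their brightest probe.

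The accessory proteins are glycoproteins of the pump with a single membrane span. Atp6ap1 encodes Ac45, which helps V0 assemble in the endoplasmic reticulum. Its brighter probe, A_51_P447988, read 2.47 and 2.71 in control and 4.52 and 4.15 with fluoxetine, and rose by 0.74 ± 0.10 (95% interval 0.46 to 1.02, adjusted p = 0.0214). Its dimmer probe, A_55_P2110978, read 1.05 and 1.07 in control and 2.06 and 1.89 with fluoxetine, and rose by 0.89 ± 0.09 (95% interval 0.65 to 1.13, adjusted p = 0.0154). On both probes the groups were well apart. Leaving out 1 array at a time gave 0.68 to 0.81 for the brighter probe and 0.83 to 0.95 for the dimmer one.

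Atp6ap2 encodes the prorenin receptor, which is also an accessory protein of V0. Its probe read 3.79 and 3.25 in control and 4.30 and 4.00 with fluoxetine. Fluoxetine 2 lay just above control 1. The log2 change was 0.24 ± 0.11 (95% interval −0.09 to 0.57, adjusted p = 0.191). It passed under 0 of 13 alternatives, with adjusted p from 0.0512 to 0.468.

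**Figure D3:**
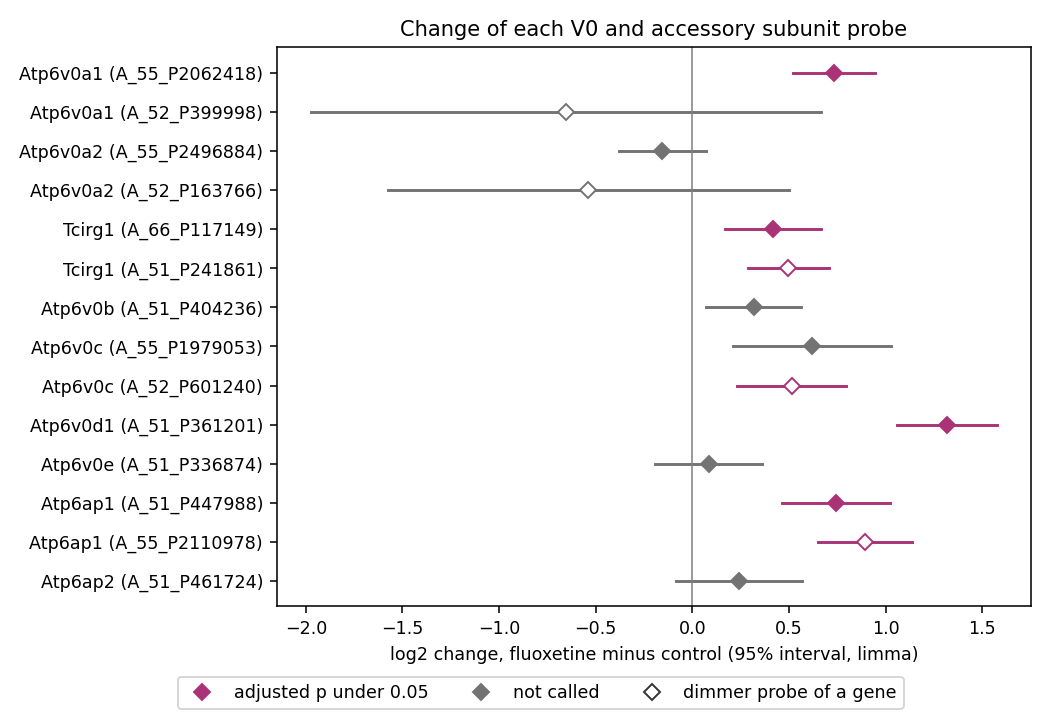
The x axis is the log2 change (fluoxetine minus control) of each probe with its 95% interval from limma over 2 arrays per group, and open symbols are the dimmer probe of a gene. The 7 called probes (purple) run from 0.42 for Tcirg1 to 1.32 for Atp6v0d1, and the intervals of the dimmer Atp6v0a1 and Atp6v0a2 probes are the widest.

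In order of the log2 change of the brightest probe, the genes ran Atp6v0d1, Atp6ap1, Atp6v0a1, Atp6v0c, Tcirg1, Atp6v0b, Atp6ap2, Atp6v0e and Atp6v0a2. Among these brightest probes, the interval of Atp6v0d1 began above the ends of all others. Atp6ap1 (0.74) and Atp6v0a1 (0.73) stood next to each other within their errors. From Atp6ap1 down, the intervals of neighbours overlapped.

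**Figure D4:**
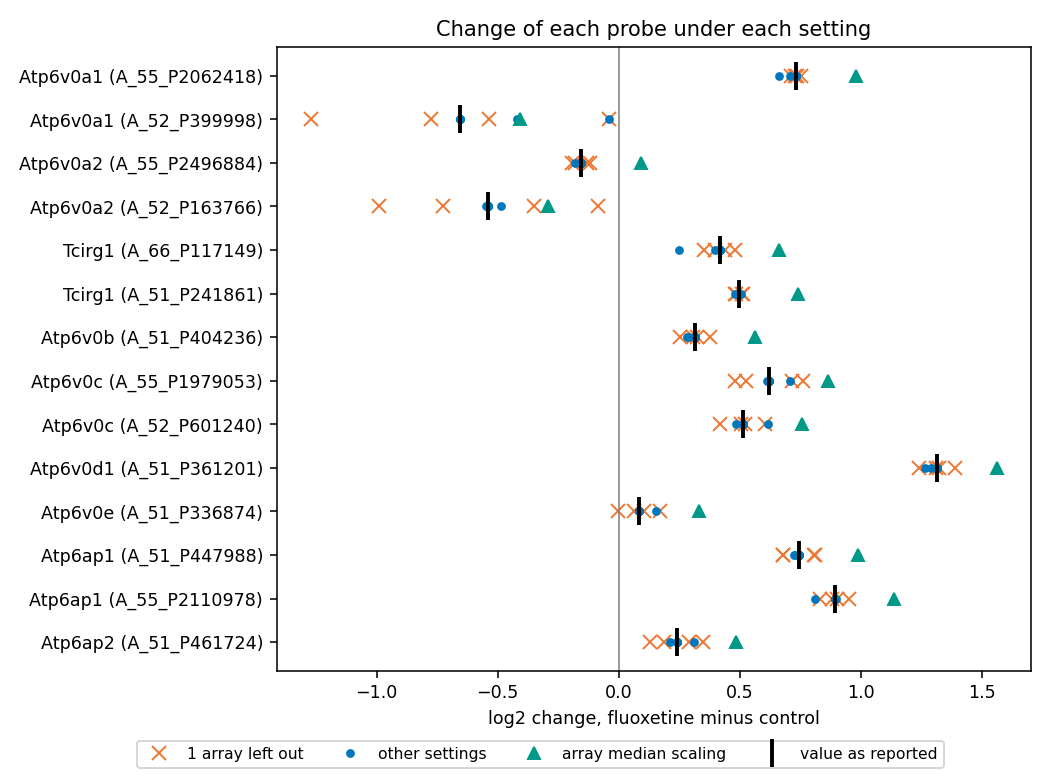
For each probe the black bar is the log2 change as reported, crosses leave out 1 of the 4 arrays, dots are other processing settings and triangles centre each array on its median. The triangles lie about 0.25 to the right of the bars, the brighter Atp6v0a2 probe goes from −0.15 to 0.09 there, and Atp6v0d1 lies between 1.24 and 1.56 throughout.

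V0 genes outside the 9 were mostly dim. Atp6v0d2, the osteoclast and macrophage form of subunit d, and Atp6v0e2 were not well above background on both arrays of either group and were not tested. Rnasek, a small V0 subunit, rose by 0.61 ± 0.13 (adjusted p = 0.0439), from 8.98 and 8.87 to 15.1 and 12.3. Atp6v0a4, the kidney form of subunit a, was dim, at −0.40 ± 0.14 (adjusted p = 0.106).

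Of the 13 listed genes of the V1 sector 10 were tested, 6 rose, 0 fell and 4 did not pass, with a median log2 change of 0.44 against 0.42 for the 9 V0 and accessory genes. The difference between the sectors was not tested, and over all genes 13.8% rose and 9.9% fell. The rises were led by Atp6v1b2 (0.77 ± 0.14, adjusted p = 0.0363) and Atp6v1a (0.74 ± 0.10, adjusted p = 0.0214), which form the catalytic head, and Atp6v1d (0.66 ± 0.08, adjusted p = 0.0183) of the rotor shaft. Atp6v1f was at 0.00 ± 0.07. The other V1 calls were Atp6v1e1, Atp6v1c1 and Atp6v1g1, the last at 0.44 ± 0.10.

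Among 10 tested genes for assembly and control of the pump, 3 rose and 1 fell, with a median of 0.28. Over all genes 13.8% rose and 9.9% fell, so 1 fall in this list is near the general share. Wdr7 (0.91 ± 0.08, adjusted p = 0.0149) and Rogdi (0.80 ± 0.09, adjusted p = 0.0185), both linked to the complex that joins V1 to V0, rose, as did Ncoa7 (0.39 ± 0.08, adjusted p = 0.0400), which had another probe of opposite sign. The V0 assembly factor gene Ccdc115 fell by 0.37 ± 0.07 (adjusted p = 0.0391). Vma21, an assembly chaperone, was at 0.23 ± 0.14 and Tmem9 at 0.32 ± 0.08, neither called. Dmxl1 and Dmxl2, partners of Wdr7, were too dim to be tested.

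Other ion channels, transporters and scaffold genes of the lysosomal membrane gave 6 rises and 1 fall among 16 tested, with a median of 0.38. The shares over all genes were 13.8% for rises and 9.9% for falls, so 1 fall is no more than the general share. Lamtor1, the membrane anchor of the Ragulator complex that docks on the pump, rose by 0.76 ± 0.11 (adjusted p = 0.0248), and Ostm1, the partner of a chloride exchanger, by 0.76 ± 0.10 (adjusted p = 0.0226). Clcn6 was well above background on the fluoxetine arrays only, so it was tested only because of the group in which it is high, and among the other 15 genes 5 rose and 1 fell. It was at least 1.52-fold higher, with the control arrays below the background limit (adjusted p = 0.0142). That bound sets the mean of the fluoxetine arrays against, on each control array, the higher of the probe's own signal and the lowest signal well above background. The Ragulator gene Lamtor2 fell by 0.48 ± 0.10 (adjusted p = 0.0460). Lamtor3 (0.30, with another probe of opposite sign) and Lamtor5 (0.00) were not called. Of the MiT/TFE transcription factor genes, which include Tfeb, 0 of 3 tested were called. Tfeb read 0.457 and 0.142 in control and 0.160 and 0.136 with fluoxetine, with control 1 alone high. Its log2 change was −0.79 ± 0.63 (adjusted p = 0.384, with another probe of opposite sign), 0.05 without control 1, and −1.63 without control 2 (adjusted p = 0.0407). Tfe3 was at 0.13 ± 0.07 and Mitf at −0.05 ± 0.08, the latter with another probe of opposite sign.

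The mitochondrial ATP synthase, a related rotary machine in another membrane, was used for comparison. Of its 15 nuclear genes 1 rose and 1 fell, beside 13.8% and 9.9% of all genes. The rise was Atp5d (0.39 ± 0.08, adjusted p = 0.0393), the fall was Atp5j (−0.59 ± 0.09, adjusted p = 0.0260), and 13 genes of the synthase did not pass. Its median was −0.12, which turns positive when each array is centred on its median, since that adds 0.25 to every change. The median of the V0 and accessory genes was 0.42, and the difference was not tested. Atp5g2 (0.07) and Atp5o (0.09, with another probe of opposite sign) were not called. All of these list counts fell to 0 without control 1, fluoxetine 1 or fluoxetine 2. Without control 2, which leaves 1 control array, fewer V1 and other lysosomal genes were called higher. No ATP synthase gene was called there, and Tfeb was called lower. Ncoa7 lost its call, at a log2 change of 0.39. Clcn6 kept its call, at 1.48, with the remaining control array below the background limit. With each array centred on its median the falls of Ccdc115, Lamtor2, Atp5j and Col1a1 were no longer called.

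**Figure D5:**
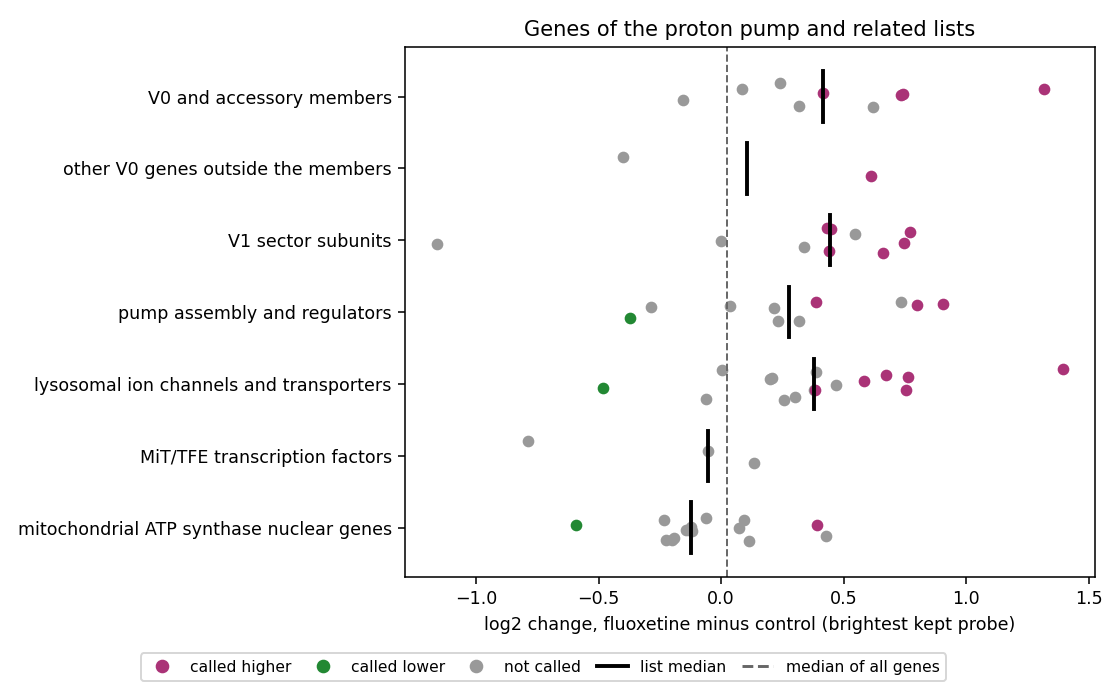
Each point is a tested gene by its brightest probe, placed by its log2 change (x axis), with called rises in purple and called falls in green. The black bars are list medians: 0.42 for V0 and accessory genes, 0.44 for V1 and −0.12 for the mitochondrial ATP synthase (positive with each array centred on its median), beside a dashed line at 0.02 for all genes.

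The arrays were alike in depth and quality. Between 51.7% and 53.5% of spots were well above background, 0 were saturated, and the 75th percentile ran from 554 to 675. A single slide held all 4 arrays and they were scanned together, which left no slide or scan to block on. Of 11 mesenchymal markers 8 were tested. Vim and S100a4 were well above background on all arrays, while Col3a1, Thy1 and Pdgfrb were too dim to be tested, and Col1a2, below the background limit with fluoxetine, fell by at least 2.43-fold. Col1a2 was dim in control too, at 0.0802 and 0.0582, and was tested only because of the group in which it is high. Prrx1 rose, with another probe of opposite sign, Col1a1 fell, and the other 5 were not called; the list's summed relative signal was 73.0 and 64.6 in control and 67.1 and 67.0 with fluoxetine. The epithelial keratin genes Krt8 and Krt18 were also well above background on all arrays, and 0 of 4 tested epithelial markers were called. Of 10 leukocyte markers 4 were tested, and Ptprc and Adgre1, which define leukocytes and macrophages, were not well above background on both arrays of either group. Cd14 and Csf1r of the same list were well above background on all arrays and not called. Cd14 read 8.20 and 8.77 in control and 7.75 and 7.43 with fluoxetine (−0.16 ± 0.08, adjusted p = 0.222). Csf1r read 0.341 and 0.291 in control and 0.274 and 0.279 with fluoxetine (−0.19 ± 0.11, adjusted p = 0.268). Itgam fell (−1.99 ± 0.08, with another probe of opposite sign), Cd3e rose (0.49 ± 0.10, also with another probe of opposite sign), and the summed relative signal of the list was 12.2 and 12.6 in control and 9.34 and 9.10 with fluoxetine. Of 9 osteoclast markers 5 were tested and 0 called. Calcr, Dcstamp, Ocstamp and Itgb3 were too dim to be tested. The sum of the osteoclast list was 32.3 and 36.6 in control and 48.0 and 44.1 with fluoxetine. It was set mostly by the probe of Acp5, the tartrate-resistant acid phosphatase of lysosomes and osteoclasts (0.43 ± 0.11, adjusted p = 0.0621). Signals of different probes are not comparable, so the sums of these lists follow their brightest probes and do not measure the amount of a cell type. The part of these cell types in the members' changes was not tested. In such bulk RNA, a change in the share of a cell type and a change of RNA per cell cannot be told apart.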

How the data were processed

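The deposited files give a linear intensity for each spot. Per the file headers, it comes from Feature Extraction (version 12.1.0.3), which had removed background and left the arrays unscaled. Other deposited columns were marks for control spots and for spots well above background, saturated or outlying. Further steps were not given in the sources used here. Cy3-labelled RNA was made from 10 ng per sample, per the labels.

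Control and outlying spots were left out (47 probes lost), spots of a probe averaged, and log2 of the signal minus the log2 of the array's 75th percentile taken. Probes were named through RefSeq accessions (GRCm38.p6 table, versions dropped): 34675 of 56605 probes matched 1 symbol and 21930 none. A probe was tested if the software marked it well above background on both control arrays or both fluoxetine arrays. The fit was limma 3.58.1 in R 4.3.3 (lmFit, eBayes, group as the only term, 4 arrays), with Benjamini-Hochberg adjustment over the 28270 tested probes. It was tested on simulated data. Alternatives changed the background correction (normexp, offset 50, on median pixel signals), scaling, filter, features fitted, variance prior, arrays and block.

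The members and lists were chosen with earlier results of these data known. The naming rule took all members, and of each other list up to 3 called genes per direction and 2 others by highest signal, and the 3 genes nearest to the member with the largest change. Other genes were named after their values were seen.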

Additional observations from a re-analysis of the deposited data

How the results depend on the processing

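The member genes called higher, 4 as reported, ranged from 0 to 6 under alternatives that kept all arrays. Of these, no filter on dim probes and the replicate number as a block gave 0, and a crossed pairing gave 3. The 7 others gave 4 to 6. Counting any called probe gave 5. Normexp background correction gave 4 and quantile normalization 4 (both without Tcirg1 and with Atp6v0c). Centring each array on its median gave 6. Probes well above background on all 4 arrays gave 5, 1 probe fitted per gene 5, and an intensity trend in the variance prior 6. The share of all genes called higher was 13.8% as reported. Under the last 6 of those 7, in that order, it was 14%, 15.3%, 35.2%, 16.9%, 16.3% and 19.8%. That share is not given for counting any called probe. With array medians the median of all genes moved from 0.02 to 0.27. Without a filter on dim probes the count was 0 genes and 0 of 14 probes, and limma called 0 of 56558 probes in all. An unadjusted p under 0.05 was reached there by 8 member probes and by 11979 of all 56558 probes. Leaving out 1 array gave 0 to 3 genes and 0 to 4 probes in place of 7, the highest without control 2, where 6.09% of all genes were called higher. No setting called a member lower. The median log2 change of the genes, 0.42, was 0.32 with the mean of a gene's probes, 0.31 with normexp, 0.66 with array medians and 0.35 to 0.48 with 1 array left out. The Atp6v0a2 probe A_55_P2496884 turned to 0.0913 with array medians, and Atp6v0e ranged from −0.000523 to 0.17 with 1 array left out. The replicate number as a block (replicate block) gave 0 genes and 0 probes. With that block, 8 of 14 member probes and 10057 of all 28270 tested probes had an unadjusted p under 0.05. The labels do not say that equal numbers share a culture, and the deviations of same-numbered arrays correlated at −0.11 across probes. The crossed pairing, added after seeing the data, gave 3 genes and 4 probes called higher, beside 5.03% of all genes and 4.69% of all probes. Levels near background limit the dimmer Atp6v0a1 probe, and 2 arrays per group limit every call.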
